A study of Mus musculus with 9 samples.

Results

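UDP-glucuronosyltransferases (UGTs) attach glucuronic acid to bilirubin, steroids, drugs and other lipophilic compounds, and Ugdh, UDP-glucose 6-dehydrogenase, makes the UDP-glucuronic acid they use. The 10 genes described here are *Ugt1a1*, *Ugt1a2*, *Ugt1a6a*, *Ugt1a6b*, *Ugt1a7c*, *Ugt1a9*, *Ugt2b34*, *Ugt2b5*, *Ugt2b36* and *Ugdh*, taken by symbol from 54838 Ensembl mouse genes measured in 7 RNA-seq libraries. They were chosen by 2 measured differences of *Ugt1a9*, which was lower with the 4-OHT label and higher with Nec-1. Those values of *Ugt1a9*, and those of the Ugt1a genes that share exons with it, are therefore given as a description without a test. Of the 10 genes, 9 had at least 1 FPKM (fragments per kilobase of transcript, scaled to the size of the library) in at least 2 libraries, and *Ugt1a2* did not.

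Glucuronidation takes place in the endoplasmic reticulum, and the water-soluble products leave the cell through ABC transporters. The enterocytes of the small intestine carry it out on compounds from food and on drugs before these reach the liver. All Ugt1a genes lie in 1 locus, where alternative first exons are joined to the same downstream exons, whereas the Ugt2b genes are separate copies in a cluster. *Ugt1a1* encodes the enzyme that conjugates bilirubin.

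The libraries came from small intestinal organoids, epithelial cultures grown from crypts, of the genotype Vil-CreERT2;Mettl3 fl/fl in C57BL/6 mice. Every group carried this genotype, in which the promoter of the epithelial gene *Vil1* drives a tamoxifen-activated Cre and *Mettl3*, the catalytic subunit of the m6A RNA methyltransferase, is flanked by loxP sites. Organoids received EtOH (the vehicle) or 4-OHT (4-hydroxytamoxifen, which activates the Cre), each with DMSO (the vehicle) or Nec-1 (necrostatin-1, an inhibitor of the kinase RIPK1). There were 2 libraries of EtOH DMSO, 2 of EtOH Nec-1, 2 of 4-OHT DMSO and 1 of 4-OHT Nec-1. No group without the Cre received 4-OHT, so the drug and the deletion cannot be told apart. The labels do not say whether replicates came from separate cultures or mice, and p-values measure only the spread between these libraries.

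The targeted gene, *Mettl3*, did not have a lower level with the 4-OHT label. Of all genes, 24.5% were called higher in 4-OHT DMSO than in EtOH DMSO, among them *Mettl3* (0.41, SE 0.098, limma adjusted p = 0.0231). It had 2.70 and 2.71 FPKM in EtOH DMSO, 2.41 and 2.47 under EtOH Nec-1, 3.72 and 4.14 in the 2 libraries labelled 4-OHT DMSO and 3.36 in the one labelled 4-OHT Nec-1. Because a value covers a whole gene, an excised exon cannot be read from it, and the directions below rest on the labels. FPKM summed to 450207 to 498712 per library and fragment counts are unknown. The markers of epithelium summed to 2515 to 3545 FPKM, whereas 6 fibroblast markers stayed under 1 FPKM in every library, with *Lum* at 0, and 6 hepatocyte markers summed to 14.5 to 23.1 FPKM. The gastric markers summed to 124 FPKM in the library labelled 4-OHT DMSO replicate 2, mostly from *Tff1*, against 1.49 to 7.46 FPKM in the other libraries. In these bulk libraries, fewer cells of a type and less RNA per cell cannot be told apart.

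The 9 measured Ugt1a genes started between positions 88055411 and 88211959 of mouse chromosome 1 (GRCm38.p6, the assembly of mm10), and 7 of them ended at the same base, 88220002. What separates them is the first exon with the promoter before it. The promoter of *Ugt1a9* (chr1:88070529-88070828, plus strand) is shown because this gene differed most between 4-OHT DMSO and EtOH DMSO among the members, and that of *Ugt1a1* (chr1:88211709-88212008, plus strand) because it had the highest FPKM of the locus in most libraries. Both are RefSeq sequences from 250 bases before to 50 bases after the start. Capitals mark matches on either strand to AGGTCA, a half-site of nuclear receptors, and to AGTTCA, a variant of it.
Ugt1a9: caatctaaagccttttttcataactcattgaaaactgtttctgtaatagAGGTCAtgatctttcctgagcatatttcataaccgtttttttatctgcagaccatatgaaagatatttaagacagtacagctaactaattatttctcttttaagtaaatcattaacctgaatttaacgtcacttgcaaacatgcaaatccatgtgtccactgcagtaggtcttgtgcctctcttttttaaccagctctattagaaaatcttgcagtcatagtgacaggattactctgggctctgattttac
Ugt1a1: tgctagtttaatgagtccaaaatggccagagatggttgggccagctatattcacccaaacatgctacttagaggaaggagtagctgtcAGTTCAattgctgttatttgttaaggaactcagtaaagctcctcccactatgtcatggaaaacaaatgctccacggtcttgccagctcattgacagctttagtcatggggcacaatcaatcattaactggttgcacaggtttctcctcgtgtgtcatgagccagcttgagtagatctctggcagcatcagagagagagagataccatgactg
AGGTCA lay 201 bases before the start of *Ugt1a9*, and AGTTCA lay 162 bases before that of *Ugt1a1*. Promoters were found for 9 of the 10 members (*Ugt1a6b* had no entry). AGGTCA was present in 4 of the 9, those of *Ugt1a9*, *Ugt1a7c*, *Ugt2b5* and *Ugt2b36*, and in 16% of 27025 mouse promoters of this length. AGTTCA was present in 1 of the 9 and in 14% of all promoters. A match describes the letters of the window, not a bound site.

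*Ugt1a9* (ENSMUSG00000090175), an enzyme for phenolic substrates, was nearly absent from the libraries labelled 4-OHT DMSO. It had 58.7 and 34.5 FPKM in EtOH DMSO, 57.1 and 69.5 under EtOH Nec-1, 0.161 and 0.313 in the 2 libraries labelled 4-OHT DMSO and 22.8 in the library labelled 4-OHT Nec-1. The EtOH groups overlapped, both values labelled 4-OHT DMSO lay far below them, and the library labelled 4-OHT Nec-1 lay in between. The difference between 4-OHT DMSO and EtOH DMSO was -5.22 (SE 0.26) in log2(FPKM + 1), the second lowest of 12702 genes by rank from the bottom, and the ratio of the means was 197. The library labelled 4-OHT Nec-1 lay 4.18 and 4.36 log2 units above those labelled 4-OHT DMSO, and its level was 48.9% of the EtOH DMSO mean.

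*Ugt1a1* (ENSMUSG00000089960) was also lower with 4-OHT but remained well expressed. Its levels were 127 and 98.7 FPKM in EtOH DMSO, 138 and 126 under EtOH Nec-1, 33.3 and 23.8 in the 2 libraries labelled 4-OHT DMSO and 101 in the one labelled 4-OHT Nec-1. The 4-OHT DMSO values were the lowest of the 7, and the 4-OHT Nec-1 value fell within the range of EtOH DMSO. The log2 difference between 4-OHT DMSO and EtOH DMSO was -1.955 (SE 0.195), and the library labelled 4-OHT Nec-1 lay 1.58 and 2.05 log2 units above its DMSO counterparts.

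*Ugt1a7c* (ENSMUSG00000090124), another enzyme of the locus, also had its lowest levels with 4-OHT DMSO, by a smaller difference. It measured 66.6 and 66.7 FPKM in EtOH DMSO, 86.2 and 85.7 under EtOH Nec-1, 42.0 and 34.0 in the 2 libraries labelled 4-OHT DMSO, and 76.25 with 4-OHT Nec-1. No 2 groups overlapped, 4-OHT Nec-1 lay above both EtOH DMSO libraries, and the log2 difference between 4-OHT DMSO and EtOH DMSO was -0.80 (SE 0.11). For *Ugt1a6a*, which acts on simple phenols, the groups EtOH DMSO (28.8 and 20.4 FPKM) and 4-OHT DMSO (10.4 and 21.04) overlapped, and the difference of -0.67 had an SE of 0.33. EtOH Nec-1 reached 44.1 and 40.0 FPKM and 4-OHT Nec-1 35.7, both above all 4 DMSO libraries.

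*Ugt1a6b* (ENSMUSG00000090145) had replicates far apart in 2 of the 3 groups with replicates. EtOH DMSO had 0.321 and 0.289 FPKM, EtOH Nec-1 0.778 and 34.6, the libraries labelled 4-OHT DMSO 0.276 and 23.3, and the one labelled 4-OHT Nec-1 9.07. The gap between replicates was 4.32 log2 units in EtOH Nec-1, matched or passed by 2 of 12702 genes including *Ugt1a6b* itself, and 4.25 in 4-OHT DMSO, against median gaps of 0.096 and 0.144. In EtOH DMSO the gap was 0.04, against a median of 0.151. No difference between groups is read from this gene. *Ugt1a2* stayed under 1 FPKM everywhere, with 0.0564 and 0.0820 in EtOH DMSO, 0.140 and 0.138 under EtOH Nec-1, 0.0247 and 0 in the 2 libraries labelled 4-OHT DMSO and 0.0733 with 4-OHT Nec-1.

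**Figure D1:**
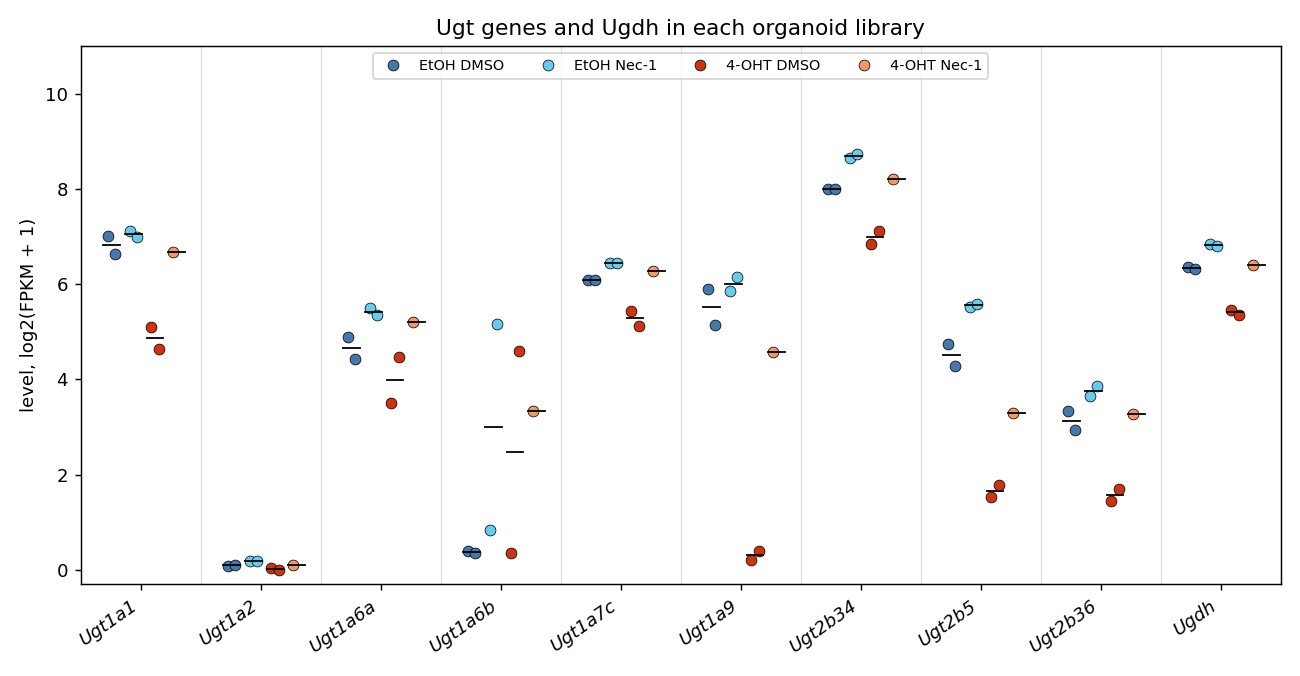
Level of each gene in log2(FPKM + 1) on the vertical axis, with 1 point per library coloured by group and a bar at each group mean. *Ugt1a9* and *Ugt2b5* have the widest gap between EtOH DMSO and 4-OHT DMSO (from 46.6 to 0.237 and from 22.1 to 2.16 mean FPKM), and the replicates of *Ugt1a6b* lie apart.

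Because reads in the common exons are divided among the Ugt1a genes by the authors' software, the sum over the 9 genes was read beside the single values. The sum was 282 and 221 FPKM in EtOH DMSO, 326 and 357 under EtOH Nec-1, 86.4 and 102 in the 2 libraries labelled 4-OHT DMSO and 246 in the one labelled 4-OHT Nec-1. It was 2.66-fold lower in 4-OHT DMSO than in EtOH DMSO, a log2 ratio of -1.41 with a pooled SD within these groups of 0.22. With Nec-1 it was 2.60-fold higher among the libraries labelled 4-OHT and 1.36-fold higher among those labelled EtOH. In 4-OHT Nec-1 it was 97.7% of the mean of EtOH DMSO, which had no Nec-1. Against the EtOH Nec-1 mean of 341 FPKM, its log2 ratio was -0.47. *Ugt1a1* made up 53.7% of the 157 FPKM by which the sum was lower in 4-OHT DMSO, *Ugt1a9* 29.5%, *Ugt1a7c* 18.2% and *Ugt1a6a* 5.67%. The mean of *Ugt1a6b* was higher in 4-OHT DMSO, so that its part was -7.31%. The make-up of the sum therefore differed: *Ugt1a9* took 15.6% to 20.8% of it in the EtOH libraries, 0.186% and 0.305% in those labelled 4-OHT DMSO, and 9.29% in 4-OHT Nec-1. *Ugt1a7c* took 23.6% and 30.2% in EtOH DMSO and 48.6% and 33.2% in 4-OHT DMSO. In the same 4-OHT DMSO libraries *Ugt1a6b* took 0.319% and 22.7%, so the shares there depend on a gene whose replicates lay far apart.

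**Figure D2:**
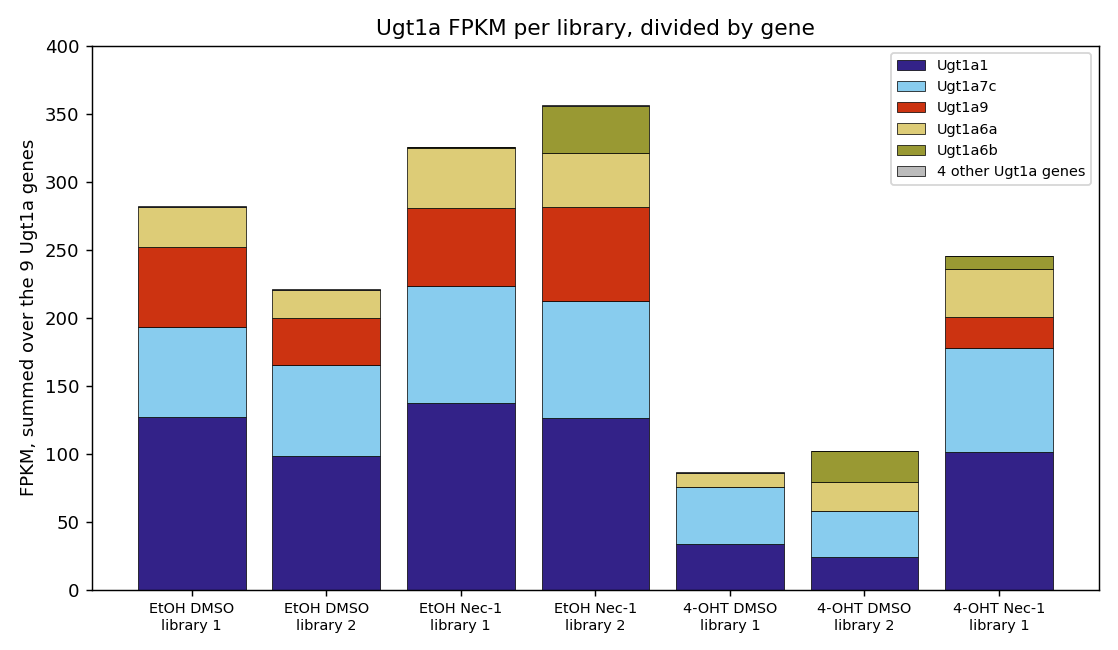
FPKM summed over the 9 Ugt1a genes for each library (bars start at 0), divided by gene. The libraries labelled 4-OHT DMSO reach 86.4 and 102 FPKM and show almost no *Ugt1a9*, and *Ugt1a6b* is visible in 3 single libraries from different groups.

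The Ugt2 genes lie in a cluster of 10 measured genes on chromosome 5 (positions 86889770 to 87490871), and the Ugt2b genes have exons of their own. Reads of closely related copies could still be exchanged. All 3 Ugt2b members were lower in the 2 libraries labelled 4-OHT DMSO, where 16.7% of all genes were called lower (2120 of 12702, with 24.5%, 3117, called higher). With each library centred on its median, the split over all genes turned to 2213 higher and 3187 lower. Centring moved every gene down by the same amount, so genes already lower, such as these 3 and *Ugdh*, could not change direction. Because the family was proposed with results of these comparisons known, the adjusted p-values are given as read from the fit over all genes.

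*Ugt2b34* (ENSMUSG00000029260) was the most abundant UGT gene by FPKM. It had 255.1 and 255.4 FPKM in EtOH DMSO, 402 and 425 under EtOH Nec-1, 114 and 138 in the 2 libraries labelled 4-OHT DMSO and 293 in the one labelled 4-OHT Nec-1, with no overlap between groups. The difference between 4-OHT DMSO and EtOH DMSO was -1.02 in log2(FPKM + 1) (SE 0.11, limma adjusted p = 0.00213). Between EtOH Nec-1 and EtOH DMSO it was 0.69 (SE 0.11, limma adjusted p = 0.132), which missed the threshold of 0.05.

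*Ugt2b5* (ENSMUSG00000054630) fell most among the members outside the Ugt1a locus, and its difference was rank 13 from the bottom of 12702 genes. It had 25.6 and 18.5 FPKM in EtOH DMSO, 45.0 and 47.2 under EtOH Nec-1, 1.91 and 2.42 in the 2 libraries labelled 4-OHT DMSO, and 8.76 in the one labelled 4-OHT Nec-1. The 4-OHT Nec-1 library lay above both 4-OHT DMSO libraries and below all 4 labelled EtOH, at 39.7% of the EtOH DMSO mean. The difference between 4-OHT DMSO and EtOH DMSO was -2.85 (SE 0.17, limma adjusted p = 0.000482), and that between EtOH Nec-1 and EtOH DMSO was 1.05 (SE 0.17, limma adjusted p = 0.134).

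*Ugt2b36* (ENSMUSG00000070704) was the least abundant Ugt2b member and had 9.08 and 6.65 FPKM in EtOH DMSO, 11.6 and 13.45 under EtOH Nec-1, 1.73 and 2.24 in the 2 libraries labelled 4-OHT DMSO and 8.64 with 4-OHT Nec-1. The 4-OHT Nec-1 value fell within EtOH DMSO. The difference between 4-OHT DMSO and EtOH DMSO was -1.56 (SE 0.17, limma adjusted p = 0.00221), and that between EtOH Nec-1 and EtOH DMSO was 0.62 (SE 0.17, limma adjusted p = 0.284).

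The promoters of *Ugt2b5* (chr5:87140291-87140590, minus strand) and *Ugt2b36* (chr5:87092506-87092805, minus strand) are shown because they hold the same run of 24 bases across AGGTCA, in capitals, close to the start.
Ugt2b5: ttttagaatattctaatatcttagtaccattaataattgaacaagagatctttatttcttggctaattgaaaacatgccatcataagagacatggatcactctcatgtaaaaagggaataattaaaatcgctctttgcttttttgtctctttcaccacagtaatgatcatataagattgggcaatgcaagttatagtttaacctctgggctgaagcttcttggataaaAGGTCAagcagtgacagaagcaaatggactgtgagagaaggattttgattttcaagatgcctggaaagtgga
Ugt2b36: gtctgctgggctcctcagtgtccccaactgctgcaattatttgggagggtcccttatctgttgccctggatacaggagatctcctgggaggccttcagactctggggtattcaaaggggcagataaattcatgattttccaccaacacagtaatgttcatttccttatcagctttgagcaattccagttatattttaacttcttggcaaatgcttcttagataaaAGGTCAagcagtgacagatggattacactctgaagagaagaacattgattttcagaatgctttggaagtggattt
The shared run, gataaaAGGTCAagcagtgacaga, began 28 bases before the start of *Ugt2b5* and 31 before that of *Ugt2b36*. Of 27025 mouse promoters, 3 held it exactly, those of *Ugt2b5*, *Ugt2b36* and *Ugt2b37*. Near matches were not searched for, and the promoter of *Ugt2b38* held such a match, gataaaAGGTCAagcagtgacaaa. *Ugt2b37* stayed under 1 FPKM in every library.

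*Ugdh* (ENSMUSG00000029201) supplies the sugar donor for every UGT. It had 81.6 and 78.7 FPKM in EtOH DMSO, 113 and 111 under EtOH Nec-1, 43.2 and 39.85 in the 2 libraries labelled 4-OHT DMSO and 83.7 in the one labelled 4-OHT Nec-1. No groups overlapped, and the replicates of each group lay close together. The difference between 4-OHT DMSO and EtOH DMSO was -0.93 (SE 0.08, limma adjusted p = 0.00108), and that between EtOH Nec-1 and EtOH DMSO was 0.48 (SE 0.08, limma adjusted p = 0.134). *Ugdh* lies at chr5:65413207-65435842 on the minus strand. Its promoter (chr5:65435793-65436092, minus strand) is shown because it was the only one of the 9 with GCGTG, the core to which the aryl hydrocarbon receptor (AhR) binds, or TGACNNNGC, the core to which NRF2 binds.
Ugdh: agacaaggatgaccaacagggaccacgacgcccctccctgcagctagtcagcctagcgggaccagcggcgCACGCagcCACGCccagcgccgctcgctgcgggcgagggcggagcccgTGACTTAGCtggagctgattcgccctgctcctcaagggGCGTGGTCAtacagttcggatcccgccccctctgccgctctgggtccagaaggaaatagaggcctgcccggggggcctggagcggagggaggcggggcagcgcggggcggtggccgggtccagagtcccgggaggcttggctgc
Capitals mark these matches on either strand. GCGTG was present 3 times, 180, 172 and 94 bases before the start, and in 32.5% of all promoters. TGACNNNGC was present 132 and 94 bases before the start and in 12.5% of all promoters, and the match at 94 overlaps a GCGTG.

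In both libraries labelled 4-OHT DMSO, 7 of the 9 members that passed the filter lay below both EtOH DMSO libraries, as did 30.8% of all genes. *Ugt1a6a* and *Ugt1a6b* were the exceptions. Nothing is read from this count, since the same comparison chose the genes. The enterocyte markers summed to 1479 and 1419 FPKM in EtOH DMSO and 1114 and 1196 in the 2 libraries labelled 4-OHT DMSO, with 5 of 9 called lower and 3 called higher. The 6 Paneth markers (8169 and 7399 FPKM in EtOH DMSO, 19150 and 19690 in 4-OHT DMSO), the 6 goblet markers (1413 and 1323, then 2091 and 2402) and the 6 enteroendocrine markers (261 and 282, then 530 and 596) were each called higher. Of 6 stem cell markers, 3 were called lower (76.4 and 75.1, then 69.7 and 47.3 FPKM in sum). The 6 immune markers summed to 2.81 and 3.31, then 6.32 and 8.72 FPKM, with 4 under 1 FPKM in every library. The 2 that were tested differed in opposite directions. *Cd68*, a macrophage marker, was called higher (1.73, limma adjusted p = 0.00689), and *Itgam* had a lower level without a call (-0.68, limma adjusted p = 0.0786). The part of these shifts in the lower UGT levels was not tested. Without the library labelled 4-OHT DMSO replicate 2, *Ugt1a6a* differed by -1.15, and without replicate 1 by -0.20, so that its size rests on which library is used. Over all alternatives tried, the limma adjusted p was 0.00165 to 0.0170 for *Ugt2b34*, 0.000342 to 0.00637 for *Ugt2b5*, 0.00168 to 0.0152 for *Ugt2b36* and 0.000847 to 0.0103 for *Ugdh*.

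With Nec-1 alone, 7 of the 9 members lay in both EtOH Nec-1 libraries above both EtOH DMSO libraries, as did 10.5% of all genes, and *Ugt1a1* and *Ugt1a9* overlapped. Here too nothing is read from the count, since a difference with Nec-1 was part of what chose the members. None was called by limma, where 0.173% of all genes (22) were called higher and 0.0472% (6) lower, and 1689 genes had an unadjusted p under 0.05. The fit to the 4 libraries of this comparison alone called *Ugt2b34* higher (limma adjusted p = 0.0342). The Ugt2b sum over 7 genes was 378 and 365 FPKM in EtOH DMSO and 586 and 623 in EtOH Nec-1, a 1.63-fold difference.

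The library labelled 4-OHT Nec-1 was compared with the 2 labelled 4-OHT DMSO without a test, since it had no replicate. The fold used was at least 1 log2 unit above, or below, both of them, which held for 0.764% of 12036 genes above and 1.21% below. *Ugt1a9*, *Ugt1a1*, *Ugt2b34*, *Ugt2b5* and *Ugt2b36* lay past this fold above. *Ugt2b34* was the nearest inside it (1.08 and 1.35 log2 units), and *Ugdh* (0.94 and 1.05), *Ugt1a7c* (0.845 and 1.14) and *Ugt1a6a* (0.74 and 1.69) were the nearest outside. In all, 8 of 9 members lay above each library labelled 4-OHT DMSO, as did 24.5% of all genes, and *Ugt1a6b* did not. This count is a description only, since a higher level with Nec-1 was part of what chose the genes. The Ugt2b sum was 160 and 191 FPKM in the 2 samples labelled 4-OHT DMSO and 413 in the one labelled 4-OHT Nec-1, 2.36-fold higher. In this library the Paneth markers summed to 14700 FPKM and the enterocyte markers to 1356 FPKM, and their part in the result was not tested.

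The differences with Nec-1 had larger values among the libraries labelled 4-OHT than among those labelled EtOH for the 4 members outside the Ugt1a locus, but this contrast was not tested. For *Ugt2b34* they were 1.22 and 0.69 in log2(FPKM + 1), for *Ugt2b5* 1.63 and 1.05, for *Ugt2b36* 1.70 and 0.62, and for *Ugdh* 0.995 and 0.48.

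**Figure D3:**
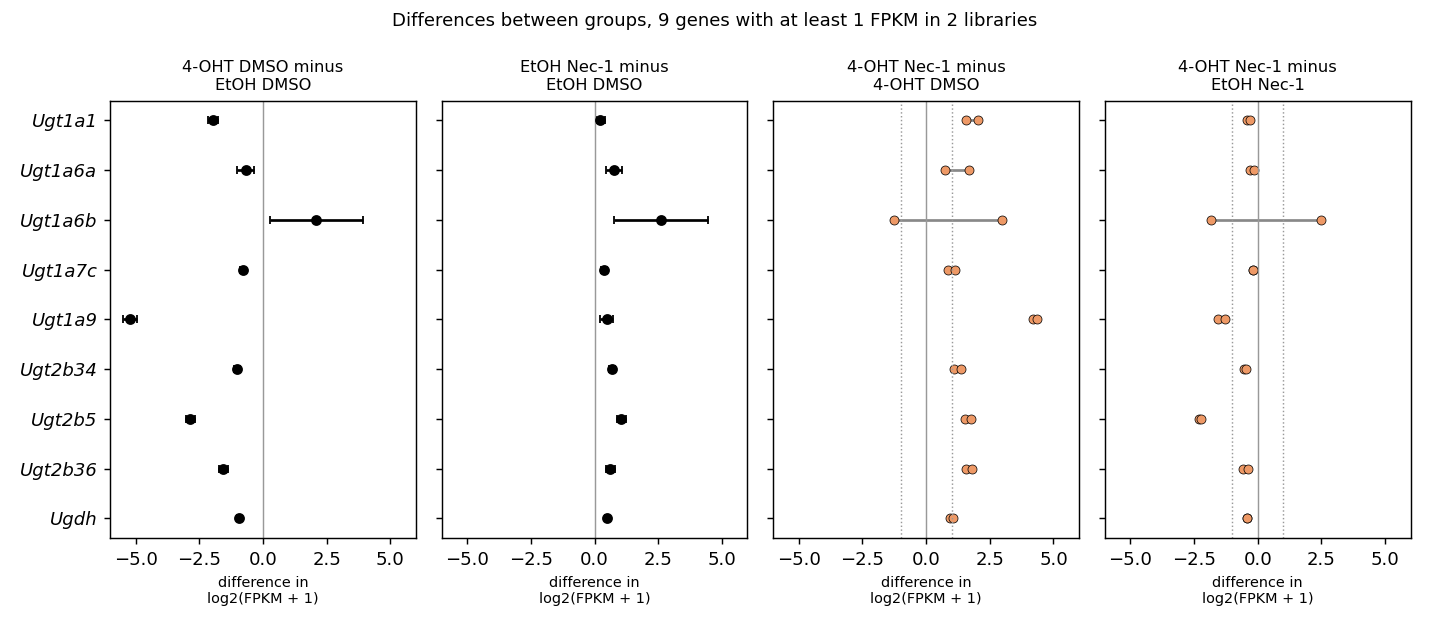
Differences in log2(FPKM + 1) for the 9 genes that passed the filter, in 4 comparisons. Black points are limma estimates with their SE, orange points are the 4-OHT Nec-1 library minus each of 2 reference libraries, and dotted lines mark 1 log2 unit. *Ugt1a9* lies at -5.22 in the first panel and between 4.18 and 4.36 in the third.

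With Nec-1 in both, the library labelled 4-OHT Nec-1 was below each EtOH Nec-1 library for 8 of 9 members, as were 38.8% of all genes. Past 1 log2 unit lay *Ugt2b5* (-2.30 and -2.235) and *Ugt1a9* (-1.57 and -1.29). Over all genes, 1.94% passed this fold below and 4.24% above. The other members differed by less: *Ugt2b34* by -0.49, *Ugt2b36* by -0.485, *Ugdh* by -0.415 and *Ugt1a1* by -0.375 on average. Against EtOH DMSO, a reference without Nec-1, the level in 4-OHT Nec-1 was 115% of the mean for *Ugt2b34*, 110% for *Ugt2b36* and 104% for *Ugdh*. It was 145% for *Ugt1a6a*, 114% for *Ugt1a7c*, 89.9% for *Ugt1a1*, 48.9% for *Ugt1a9* and 39.7% for *Ugt2b5*.

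Of the 13 other UDP-glycosyltransferase genes, 3 passed the filter, and all 3 were called lower in 4-OHT DMSO and none in EtOH Nec-1. They were *Ugt2a3* (-2.12, limma adjusted p = 0.0014), *Ugt2b35* (-0.89, 0.00235) and *Ugt2b38* (-1.31, 0.00448). *Ugt2b35* was abundant, with 84.8 and 82.3 FPKM in EtOH DMSO, 121 and 131 under EtOH Nec-1, 41.3 and 48.1 in the 2 libraries labelled 4-OHT DMSO and 101 with 4-OHT Nec-1. *Ugt2a3* had 16.9 and 12.6, then 30.0 and 31.6, then 2.06 and 3.20, and 13.0 FPKM in the same order. *Ugt2a1*, *Ugt2a2* and *Ugt3a1* were listed at 0 in every library. For this list and those below, the shares over all genes in 4-OHT DMSO were 16.7% called lower and 24.5% called higher.

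Upstream of *Ugdh* and at the other uses of UDP sugars, 2 of 10 genes were called higher in 4-OHT DMSO, 1 lower and 7 neither, with a median of 0.21 against 0.08 for all genes. *Ugp2*, which makes UDP-glucose, was lower (-0.725, limma adjusted p = 0.00301), and *Pgm2*, a phosphoglucomutase family enzyme, was higher (0.72, 0.00254). *Gusb*, the lysosomal beta-glucuronidase that removes glucuronic acid, was higher, with 5.98 and 6.37 FPKM in EtOH DMSO and 24.3 and 20.0 in 4-OHT DMSO (1.68, limma adjusted p = 0.000619). It stayed at 17.4 FPKM with 4-OHT Nec-1.

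Among the 6 enzymes of heme and bilirubin metabolism, 2 were called higher, 2 lower and 2 neither (median 0.03). *Hmox2*, a heme oxygenase, was higher (0.59, limma adjusted p = 0.00879), as was *Blvra*, biliverdin reductase A (0.51, 0.0349). *Blvrb*, biliverdin reductase B, was lower (-1.09, limma adjusted p = 0.00866), as was *Fech*, which inserts iron into protoporphyrin to form heme (-0.36, 0.0376).

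Of the 6 transporters of glucuronides and related anions, 3 were called lower, 1 higher and 2 neither (median -0.27). *Abcc2* (MRP2), an apical exporter of glucuronides, had 26.6 and 33.8 FPKM in EtOH DMSO, 54.1 and 53.95 under EtOH Nec-1, 18.1 and 18.5 in the 2 libraries labelled 4-OHT DMSO and 81.7 in the one labelled 4-OHT Nec-1. It was the only one of the 6 past 1 log2 unit above both 4-OHT DMSO libraries (2.08 and 2.12). *Slco2b1*, an uptake carrier, was lower in 4-OHT DMSO (-1.92, limma adjusted p = 0.000354) and stayed at 2.02 FPKM with Nec-1, against 8.29 in both EtOH DMSO libraries. *Abcg2*, an apical exporter, was lower (-0.40, limma adjusted p = 0.0173), and *Abcc4* was higher (1.01, 0.00641).

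The list for sulfation, another conjugation reaction, held 6 tested genes, 4 sulfotransferases and the 2 enzymes that make their sulfate donor. In 4-OHT DMSO, 5 of the 6 were called lower (list median -1.26), as were 16.7% of all genes. The called genes were *Sult1b1*, *Sult1c2*, *Sult1d1*, *Papss1* and *Papss2*, and *Sult2b1* was not called (-0.44, limma adjusted p = 0.0566). *Sult1b1*, which sulfates phenols and thyroid hormones, had 61.3 and 53.5 FPKM in EtOH DMSO and 7.84 and 9.69 in 4-OHT DMSO (-2.585, limma adjusted p = 0.000354). It had 12.6 FPKM with 4-OHT Nec-1, while *Sult1d1* had 93.5 there, 118 and 98.8 in EtOH DMSO and 31.2 and 42.0 in 4-OHT DMSO. Of the donor enzymes, *Papss2* differed by -0.96 (limma adjusted p = 0.00259) and *Papss1* by -0.40 (0.0288).

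Of the 13 tested genes for regulators of UGT transcription, 10 were not called in 4-OHT DMSO, and the median was 0.085. The exception with a large change was *Nr1i3*, the nuclear receptor CAR, with 21.3 and 23.1 FPKM in EtOH DMSO, 22.6 and 23.2 under EtOH Nec-1, 3.26 and 3.59 in the 2 libraries labelled 4-OHT DMSO and 7.68 in 4-OHT Nec-1. It was lower in 4-OHT DMSO by limma (-2.39, SE 0.09, adjusted p = 0.000256) and lay near its EtOH DMSO level with Nec-1 alone (0.04, adjusted p = 0.874). *Nfe2l2*, which encodes NRF2, was slightly higher (0.34, limma adjusted p = 0.022), as was *Nr1h4*, the bile acid receptor FXR (0.39, 0.0296). *Hnf4a* (-0.22), *Nr1i2*, the xenobiotic receptor PXR (0.085), and *Ahr* (0.27) were not called.

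Of the 3 AhR target genes outside the family that were tested, 1 was called lower in 4-OHT DMSO and 1 higher with Nec-1 alone. The list held 6 genes, and *Cyp1a2*, *Cyp1b1* and *Aldh3a1* did not pass the filter. In 4-OHT Nec-1 these had 0.806, 1.88 and 0.0264 FPKM, against 4-OHT DMSO means of 0.0401, 0.0862 and 0.0697. *Cyp1a1*, a cytochrome P450 induced through AhR, was the only gene of any of these lists called with Nec-1 alone. It had 0.018 and 0.061 FPKM in EtOH DMSO, 57.4 and 56.0 under EtOH Nec-1, 0.322 and 0.103 in the 2 libraries labelled 4-OHT DMSO and 170 in the one labelled 4-OHT Nec-1 (EtOH Nec-1 against EtOH DMSO 5.795, limma adjusted p = 9.25e-05). *Nqo1*, a quinone reductase that is a target of both AhR and NRF2, had 176 and 180, then 323 and 318, then 58.3 and 67.6, and 220 FPKM in the same order of groups. It was lower in 4-OHT DMSO (-1.49, limma adjusted p = 0.000544), and its difference with Nec-1 alone was 0.84 (limma adjusted p = 0.0603). *Tiparp*, an AhR-induced ADP-ribosyltransferase, was called in neither comparison (0.14 with 4-OHT, limma adjusted p = 0.311, and 0.12 with Nec-1 alone, 0.638).

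Of the 8 NRF2 target genes, 2 were called lower in 4-OHT DMSO (*Nqo1* and *Gclc*), 1 higher (*Slc7a11*) and 5 neither (median -0.01). *Gclc*, the catalytic subunit for glutathione synthesis, was lower (-1.025, limma adjusted p = 0.00268), and *Slc7a11*, the cystine carrier, was higher (0.49, 0.0186). With 4-OHT Nec-1, 3 of the 8 lay past 1 log2 unit above both 4-OHT DMSO libraries, as did 0.764% of all genes. They were *Nqo1* (1.795), *Gclc* (1.49) and *Slc7a11* (1.19). Above each 4-OHT DMSO library by any amount lay 7 of the 8, as did 24.5% of all genes.

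**Figure D4:**
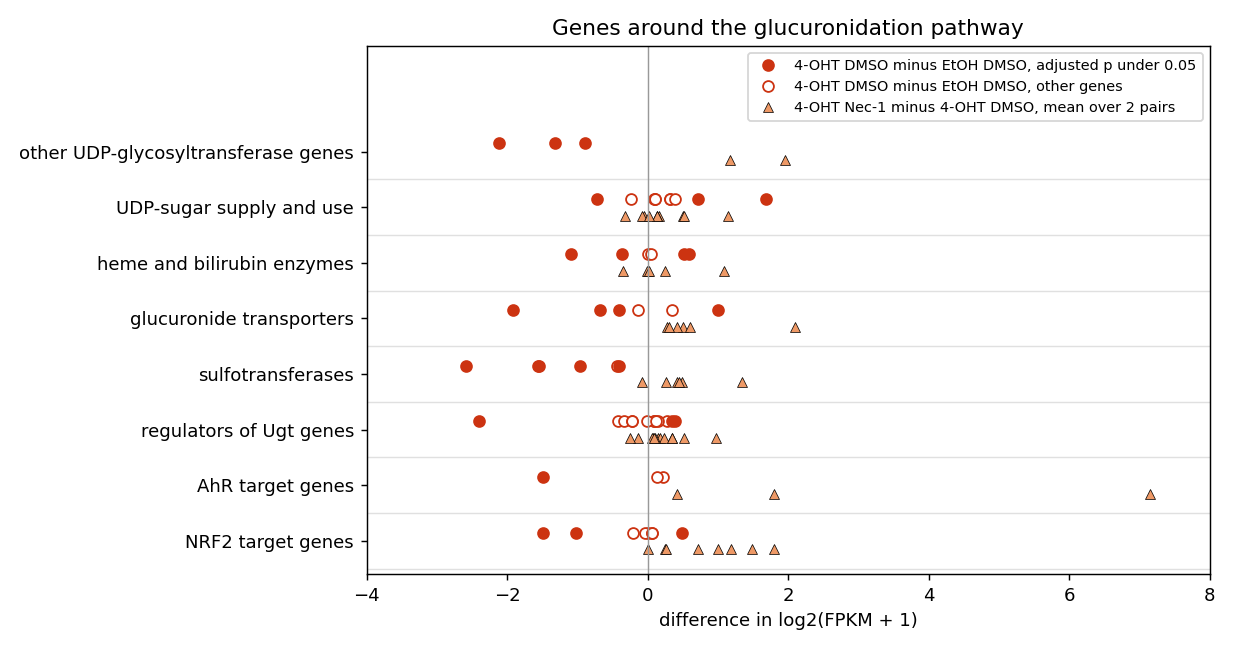
Differences in log2(FPKM + 1) for the genes of 8 lists. Circles compare 4-OHT DMSO with EtOH DMSO (filled when the limma adjusted p is under 0.05) and triangles give the mean difference of the 4-OHT Nec-1 library from the 2 libraries labelled 4-OHT DMSO. *Nr1i3* is the filled circle at -2.39 among the regulators and *Cyp1a1* the triangle at 7.14.

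The genes nearest to *Ugt1a9* in pattern over the 7 libraries were *Ces1d*, *Ces1g*, *Aldh1a7*, *Akr1c14* and *Gm5485*. Their profiles of log2(FPKM + 1), centred on each gene's mean, differed from that of *Ugt1a9* by a root mean square of 0.77 to 1.06, against a median of 2.48 for all genes. *Ces1d* had 70.2 and 65.3 FPKM in EtOH DMSO, 103 and 107 under EtOH Nec-1, 0.891 and 1.74 in the 2 libraries labelled 4-OHT DMSO and 8.31 with 4-OHT Nec-1. Nearest to *Ugdh* were *Ddc* (0.041), *4931406C07Rik* (0.096), *Scd2* (0.10), *Slc25a45* (0.102) and *Me1* (0.105), against a median of 0.644. *Ddc* had 17.5 and 15.5, then 23.8 and 23.5, then 8.38 and 7.44, and 17.2 FPKM in the same order. The 7 libraries fall into 4 groups, so that likeness mainly describes agreement of group levels.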

How the data were processed

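Bulk RNA-seq of 7 organoid libraries in 4 groups was used, and the 2 Atf3 ChIP-seq samples were not analysed here. The authors deposited FPKM, 1 value per Ensembl gene and library. Per the submitters' processing notes, which name no role or order, HISAT2 2.1.0, StringTie 1.3.3b and mm10 were used. Fragments in exons common to several genes are divided by such software, and how this was set is not given in the sources used here. Of 54838 gene identifiers, 54723 had a symbol. One table held 2 further columns that repeated other libraries (largest difference 5e-06 FPKM) and were counted once.

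Analyses used Python 3.11.15, numpy 2.4.6, pandas 2.3.3, matplotlib 3.10.9 and limma 3.58.1 in R 4.3.3. limma with a mean-variance trend was fitted to log2(FPKM + 1) of 12702 genes (1 FPKM or more in 2 libraries or more), with 1 mean per group over all 7 libraries, Benjamini-Hochberg adjustment and a threshold of 0.05. A fold on this scale understates changes of low genes. The fit was tested on simulated data. Comparisons with the single 4-OHT Nec-1 library had no test and used genes averaging 1 FPKM or more over the 3 libraries compared. Fragment counts are unknown, and low FPKM steps gave depths of 0.853 to 1.03 relative to the first EtOH DMSO library. Same-numbered libraries did not deviate together (correlations -0.04, 0.01 and -0.01). Promoters and positions came from RefSeq tables of GRCm38.p6, and motifs were searched on both strands. One item is not reported here.

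The members and lists were chosen with earlier results of these data known. Genes named are the 10 members, *Mettl3*, the genes of the 8 lists and cell type markers. Also named are the 5 genes outside the members nearest in profile to *Ugt1a9* and to *Ugdh*. Alternatives were a pseudocount of 0.1, other filters, no trend, median centring, the 4 libraries of a comparison alone, the replicate block, the Ugt1a genes as 1 sum, sums over members alone or of FPKM rescaled to the same total, and each replicate left out.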

Additional observations from a re-analysis of the deposited data

How the results depend on the processing

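Of 326 alternative values for single genes, 302 gave the same call or stayed within the replicate spread, 21 moved, 3 passed the threshold anew and 0 reversed a call. The 3 were *Ugt2b34* in EtOH Nec-1 against EtOH DMSO. For the Ugt1a genes, given without a test, many alternatives could not change the value. Other filters, no trend, the replicate block or a library of another group left out keep the same group means, so 302 does not measure robustness. *Ugt1a6b* ranged from -0.03 to 4.22 in 4-OHT DMSO against EtOH DMSO and from -1.27 to 2.98 in 4-OHT Nec-1 against 4-OHT DMSO. These changes of sign counted as within its wide replicate spread. *Ugt1a9* reached -7.10 in 4-OHT DMSO against EtOH DMSO with a pseudocount of 0.1. The count of genes called in EtOH Nec-1 against EtOH DMSO was 28, and was 8 with no filter, 87 with only the 4 libraries of the comparison, and 9 to 79 with each replicate left out (lowest without EtOH Nec-1 replicate 2, highest without either 4-OHT DMSO replicate). Genes past the fold in 4-OHT Nec-1 against 4-OHT DMSO numbered 238, and 378 with a pseudocount of 0.1 and 425 to 790 with replicate 2 or replicate 1 of 4-OHT DMSO left out, where 1 reference library remained. In 4-OHT Nec-1 against EtOH Nec-1 they numbered 726, and 1132 with a pseudocount of 0.1. Median centring split these as 119 higher and 115 lower (92 and 146 uncentred), and 345 and 317 (498 and 228 uncentred). The Ugt2b sum's log2 ratio of 0.70 for EtOH Nec-1 against EtOH DMSO was 0.61 with every library's FPKM rescaled to the same total. The cause of these shifts was not tested. Genes called in 4-OHT DMSO against EtOH DMSO numbered 5237, and 3650 to 5400 under the alternatives. The replicate numbers share only a number, and with the replicate block 4697 genes were called in 4-OHT DMSO and 19 in EtOH Nec-1. Depth is unknown, so no counting error is given, and 1 library without a replicate limits what 4-OHT Nec-1 can show.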
